A study of Mus musculus with 8 samples.

Results

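H3K9 acetylation was described at 9 genes of the MYC and MYB network, out of 21938 protein-coding genes on the nuclear chromosomes. The genes were *Myc*, *Mycn* and *Mycl*, their partner *Max*, the MAX-binding repressors *Mxd1*, *Mxi1*, *Mnt* and *Mga*, and *Myb*. They were chosen by name, and the peaks taken for them lay within 1 kb of any annotated transcription start site (TSS) of the gene. For *Myc*, distal peaks up to 2 Mb downstream on chromosome 15 were added, and for *Myb*, distal peaks up to 150 kb upstream on chromosome 10. Whole bone marrow (BM) cells of C57BL/6 mice were used, and every mouse carried the *NUP98-HOXD13* transgene, a fusion that causes myelodysplasia and leukaemia. The mice also differed in GFI1, a zinc finger repressor that brings histone deacetylases to its targets. *GFI1-36S* and *GFI1-36N* mice expressed the human cDNA of the serine or asparagine form from the murine locus, and *GFI1-KD* mice had a reduced GFI1 level. Mice of each genotype received curcumin (20 mg/kg, weekly, intraperitoneally) or an equal volume of DMSO (vehicle). There was 1 H3K9ac library for each of the 6 groups, so that the differences below could not be checked against replicates and are given without p-values. The age of the mice and the number of animals behind a library are not given in the sources used here.

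MYC, MYCN and MYCL are transcription factors that bind the E-box sequence in DNA as a pair with MAX and drive ribosome production, metabolism and cell division. MXD1, MXI1 and MNT pair with MAX at the same sites and recruit histone deacetylases, and MGA joins MAX in a Polycomb-like repressor complex. In blood cells, *Myc* is controlled by a cluster of enhancers far downstream of the gene, and *Myb*, which keeps progenitor cells from differentiating, by enhancers between it and its upstream neighbour. H3K9ac, the acetylation of lysine 9 of histone H3, marks active promoters and enhancers.

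The sequences under the peaks that carry the main results are shown first. For *Max* and *Mnt*, the promoters that ranked highest, 250 bases ending 10 bases after (*Max*) or right before (*Mnt*) the RefSeq start are given from the RefSeq promoter table of GRCm38.p6, the assembly of mm10. The 250 bases before the start of *Myb* are given because its promoter differed most between the *GFI1-36N* libraries. All 3 are written on the strand of the gene, and capitals mark the E-box CACGTG or the E2F motif TTTGGCG.
*Max*, chr12:76962239-76962488, minus strand: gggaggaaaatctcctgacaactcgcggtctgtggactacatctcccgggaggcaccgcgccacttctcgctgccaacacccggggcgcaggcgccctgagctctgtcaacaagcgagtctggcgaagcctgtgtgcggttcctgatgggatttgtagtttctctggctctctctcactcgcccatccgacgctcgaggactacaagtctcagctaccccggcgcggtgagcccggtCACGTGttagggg
*Mnt*, chr11:74830674-74830923, plus strand: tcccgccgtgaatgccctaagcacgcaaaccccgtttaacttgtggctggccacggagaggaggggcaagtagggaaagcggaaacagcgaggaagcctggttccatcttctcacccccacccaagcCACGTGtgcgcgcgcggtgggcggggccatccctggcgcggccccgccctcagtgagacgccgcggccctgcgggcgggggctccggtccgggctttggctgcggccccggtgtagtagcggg
*Myb*, chr10:21160985-21161234, minus strand: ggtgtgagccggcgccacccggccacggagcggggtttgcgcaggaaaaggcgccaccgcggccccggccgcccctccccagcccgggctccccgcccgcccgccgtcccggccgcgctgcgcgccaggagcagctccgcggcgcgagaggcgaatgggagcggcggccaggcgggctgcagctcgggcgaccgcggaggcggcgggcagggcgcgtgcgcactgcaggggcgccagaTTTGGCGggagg
An E-box was found at 2 of the 8 members in the promoter table, *Max* and *Mnt*, against 7.15% of all 32851 promoters of 300 bases, searched on both strands. The first base of the *Max* E-box lay 3 bases before the RefSeq start, and that of *Mnt* 123 bases before it. The E2F motif was found in the *Myb* and the *Mycn* promoter and in 1.56% of all promoters. The letters of the E2F motif were settled after these sequences had been seen, and the matches are a description of the letters alone.

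The other sequences are windows of 300 bases around the summits of distal peaks, read from the same assembly on the plus strand. The first is the site downstream of *Myc* and the second the site upstream of *Myb* that had a peak in every library except *GFI1-36S* curcumin and the highest summit among such sites of its gene. The other two lie at the TSS of the long non-coding RNA genes *Gm40608* and *Gm33728* upstream of *Myb*, the first strongest with *GFI1-KD* vehicle and the second with *GFI1-36S* curcumin. Capitals mark matches on either strand to the E-box CACGTG, the E2F motif TTTGGCG, the GFI1 core AAATCA, the MYB motif TAACNG, the GATA motif AGATAA, the RUNX motif TGTGGT or the ETS motif AGGAAG.
*Myc* downstream site, chr15:63704340-63704639: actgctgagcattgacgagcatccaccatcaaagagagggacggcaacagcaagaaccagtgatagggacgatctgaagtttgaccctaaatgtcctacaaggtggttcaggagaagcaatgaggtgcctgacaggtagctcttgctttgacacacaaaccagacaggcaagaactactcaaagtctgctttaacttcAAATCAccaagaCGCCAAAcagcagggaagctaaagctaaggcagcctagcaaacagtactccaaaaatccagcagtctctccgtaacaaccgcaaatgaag
*Myb* upstream site, chr10:21192207-21192506: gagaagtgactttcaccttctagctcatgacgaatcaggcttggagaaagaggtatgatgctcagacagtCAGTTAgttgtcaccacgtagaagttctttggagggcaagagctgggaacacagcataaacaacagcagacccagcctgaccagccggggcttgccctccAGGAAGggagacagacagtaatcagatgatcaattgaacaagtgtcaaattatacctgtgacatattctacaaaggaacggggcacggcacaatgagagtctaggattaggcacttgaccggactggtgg
*Gm40608* start, chr10:21188842-21189141: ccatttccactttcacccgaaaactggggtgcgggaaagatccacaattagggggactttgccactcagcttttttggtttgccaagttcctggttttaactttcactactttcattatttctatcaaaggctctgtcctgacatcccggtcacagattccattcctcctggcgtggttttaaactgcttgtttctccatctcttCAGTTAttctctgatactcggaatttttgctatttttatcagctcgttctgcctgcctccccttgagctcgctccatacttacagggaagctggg
*Gm33728* start, chr10:21251875-21252174: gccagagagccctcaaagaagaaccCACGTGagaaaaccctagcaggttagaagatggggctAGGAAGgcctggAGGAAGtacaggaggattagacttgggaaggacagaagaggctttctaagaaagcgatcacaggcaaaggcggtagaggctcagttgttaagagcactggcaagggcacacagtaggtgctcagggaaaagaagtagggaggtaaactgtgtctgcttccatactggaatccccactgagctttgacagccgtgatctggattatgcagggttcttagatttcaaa
The *Myc* downstream window held a GFI1 core followed by an E2F match. In the *Myb* upstream window, a MYB match was followed by an ETS match, and the *Gm40608* window held a MYB match. The *Gm33728* window held an E-box and a pair of ETS matches. Among 49276 distal sites of all libraries, windows of the same size held the GFI1 core in 16.7%, the MYB motif in 29.2%, the ETS motif in 41.7%, the E-box in 4.32% and the E2F motif in 0.674%. The limit given above for the letters of the E2F motif holds here too, and these matches describe the letters alone.

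The strength of a peak is given as the deposited fold enrichment of the summit over the local background. Because the lists are not normalized between libraries, a promoter rank is used. It places the strongest promoter peak of a gene among those of all protein-coding genes with a peak in the same library, from 0 (no peak) to 100 (highest). Between 9932 and 12123 genes had a promoter peak in a library. Whole numbers of fragments at the summit were recovered from the deposited fold enrichment and p, and their exact Poisson 95% interval gave an interval of the rank that covers counting error only. The lists held 20354 to 49213 peaks, with a median of 24 to 36 fragments at the summit.

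The *GFI1-36S* curcumin library stood apart from the others. It had the shortest list and 13 of 14 T-cell promoters with a peak, against 4 to 6 in the other 5 libraries. It also had a peak at 1 of 18 neutrophil, 2 of 10 progenitor and 1 of 10 erythroid promoters, whereas the other libraries had 10 to 17, 9 to 10 and 5 to 10. B-cell promoters had a peak at 2 of 8 there and at 2 to 4 elsewhere. Peaks on chromosome Y were found in this library (3) and in no other. The treatments in the names of the *GFI1-36S* lists are the reverse of those in the sample labels, and the labels were followed here. By the names of the *GFI1-36N* lists, the vehicle mouse was heterozygous and the curcumin mouse homozygous. The labels are silent on this, and if the names are right, treatment and gene dose cannot be told apart. In whole BM, fewer cells of a type and less acetylation per cell cannot be told apart either.

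Promoter H3K9ac was present at most of the network in all groups. A promoter peak was found in all 6 libraries for 7 of the 9 genes, against 43.4% of all protein-coding genes. Without *GFI1-36S* curcumin the count was 8 of 9, against 49.5%. *Mycl* lacked a peak in *GFI1-36S* curcumin alone, and *Mycn* had one in 3 libraries. By median rank over the libraries, the order from high to low was *Max*, *Mnt*, *Mxd1*, *Myb*, *Mxi1*, *Myc*, *Mga*, *Mycl* and *Mycn*. The top pair, at 93.6 and 93.2, had overlapping intervals in each library. *Mga* and *Mycl* were the only neighbours in this order whose intervals overlapped in no library.

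**Figure D1:**
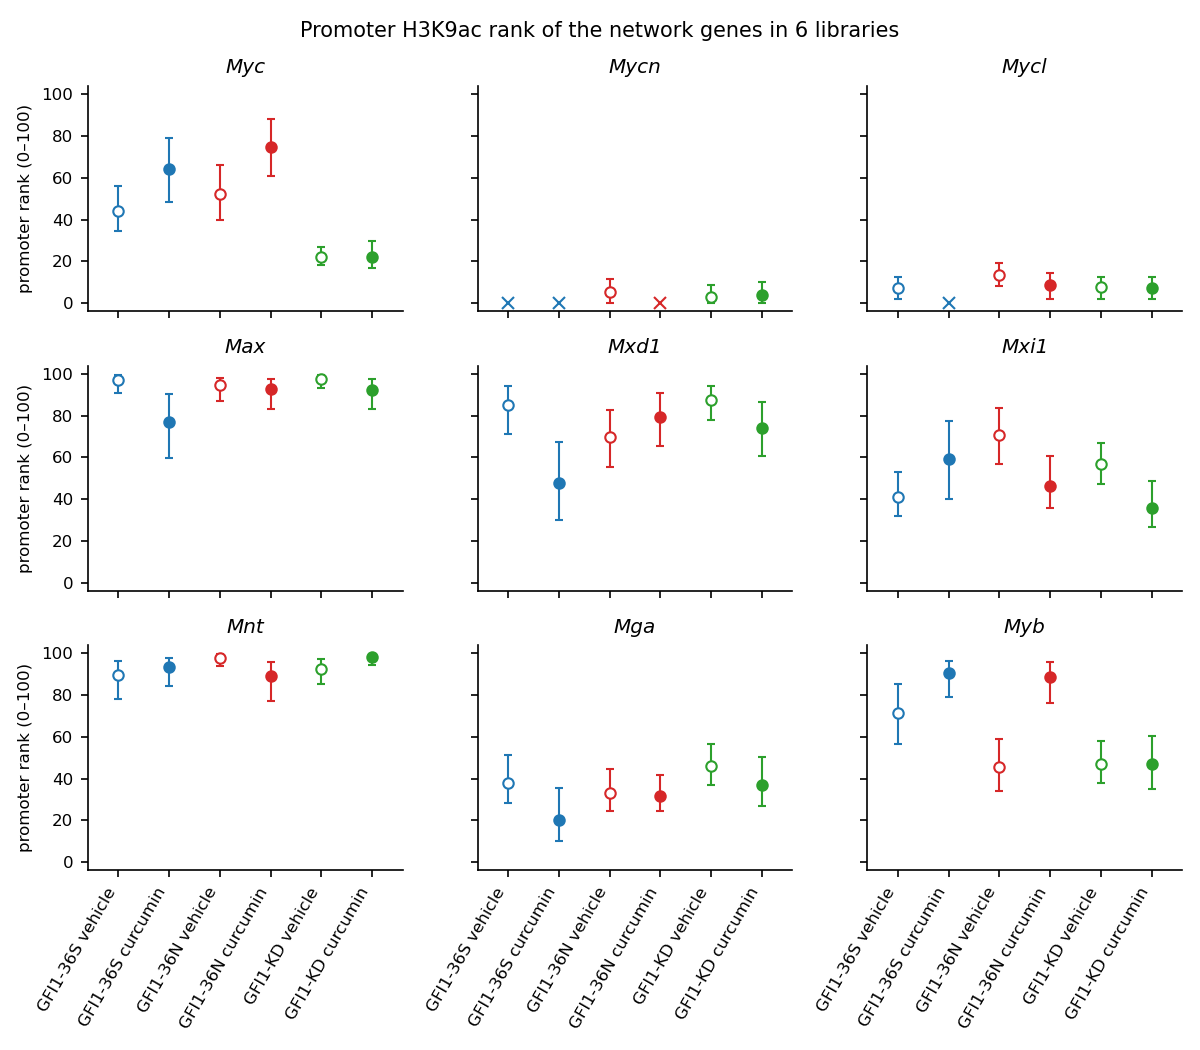
Promoter rank of the 9 genes (y axis, 0 to 100) in the 6 libraries (x axis; open circles vehicle, filled circles curcumin, crosses no peak). Bars are 95% intervals of counting error, and *Max* and *Mnt* stay near the top while *Myc* and *Myb* span a wide range.

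*Myc* (chr15:61985391-61990374, plus strand) encodes the family member expressed in most dividing cells. Its strongest promoter peak had a fold enrichment of 18.3 with vehicle and 14.7 with curcumin in *GFI1-36S* mice. The values were 17.8 and 27.9 in *-36N* mice, and 11.0 in both libraries of *-KD* mice. The corresponding ranks were 44.0 and 64.0 in *GFI1-36S*, 52.1 and 75.0 in *-36N*, and 22.2 and 22.1 in *-KD* mice. Both *GFI1-KD* libraries thus ranked below all 4 others, and their intervals, from 16.6 to 29.8 at the widest, did not overlap those of the others, which began at 34.4. The summits rested on 148 and 112 fragments in *GFI1-36S*, 123 and 160 in *-36N*, and 130 and 90 in *-KD* mice, vehicle first. *GFI1-KD* vehicle thus had a lower fold enrichment than *-36N* vehicle on more fragments. In the same *GFI1-KD* library, 146 fragments gave a fold enrichment of 20.1 at *Mga*. The local background also enters the fold enrichment and the rank, and the intervals do not cover it. Its part in the low *GFI1-KD* ranks was not tested. With vehicle, the rank of *Myc* in *GFI1-KD* mice differed by −21.8 points from *-36S* and by −29.9 points from *-36N* mice. With the *GFI1-36S* treatments exchanged, the first of these was −41.8 points. Rank intervals that did not overlap, in this direction, were found for 2.06% and 4.52% of all genes with a peak in both libraries. *Myc* was the only one of the 9 genes to rank lower beyond the intervals in either comparison, and none ranked higher, against 5.87% and 5.42% of all genes. With curcumin, *Myc* was 22.9 points higher in *GFI1-36N* mice, with overlapping intervals, and 97.2% of genes had a lower change.

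The *Myc* promoter peak also differed in shape. In *GFI1-36N* curcumin, a single peak of 4756 bp reached from 1749 bp before to 3006 bp after the most 5′ TSS. In the 3 vehicle libraries the domain was split in 2, with a main peak of 3277 to 3621 bp. It was split in 3 in *GFI1-36S* and *-KD* curcumin, with main peaks of 2603 and 2598 bp. The bases covered by all *Myc* promoter peaks were 4600 and 3988 in *GFI1-36S*, 4543 and 4756 in *-36N*, and 4225 and 3872 in *-KD* mice, vehicle first. The genes whose ranks were most like those of *Myc* over the 6 libraries were *Aaas*, *Prmt3* and *Kdsr*, with mean absolute differences of 4.37, 6.06 and 6.36 points.

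**Figure D2:**
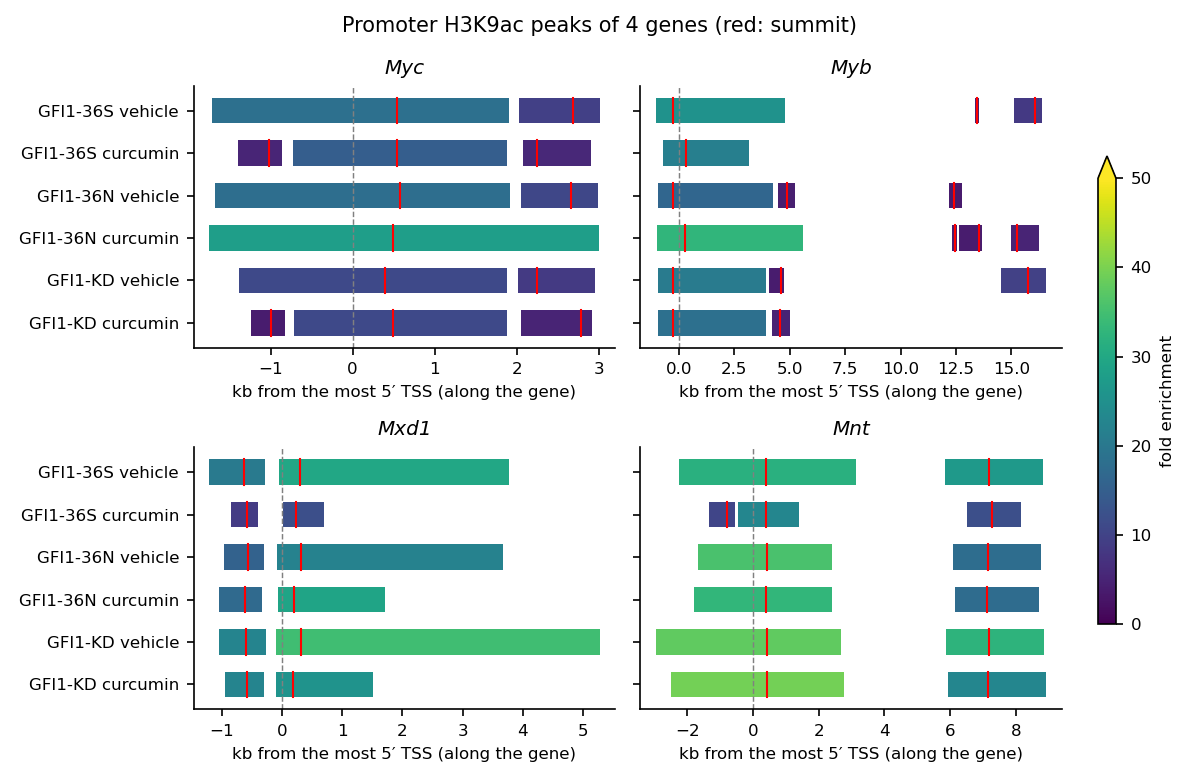
Promoter peaks of *Myc*, *Myb*, *Mxd1* and *Mnt* (bars, distance in kb from the most 5′ TSS along the gene) in the 6 libraries, coloured by fold enrichment, with summits in red. The unsplit *Myc* peak of *GFI1-36N* curcumin and the short *Mxd1* peaks of the 3 libraries labelled curcumin stand out.

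*Mycn* (chr12:12936093-12941914, minus strand) and *Mycl* (chr4:122995652-123002485, plus strand) are MYC paralogs best known from neural and lung tissue. At *Mycn*, the strongest peak had a fold enrichment of 4.03 in *GFI1-36N* vehicle, 3.58 in *GFI1-KD* vehicle and 4.15 in *GFI1-KD* curcumin, and no peak was listed in the other 3 libraries. These peaks were 226 to 308 bp wide, rested on 24 to 27 fragments and ranked between 2.81 and 5.15. Their summits lay 443 to 513 bp before the most 5′ TSS. *Mycl* had fold enrichments of 4.86 in *GFI1-36S* vehicle, 6.47 and 4.85 in *-36N* vehicle and curcumin, and 4.81 and 5.15 in *-KD* vehicle and curcumin. Its ranks of 7.08 to 13.3 overlapped in their intervals. Both paralogs thus ranked below *Myc* in each library.

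*Max* (chr12:76937269-76962201, minus strand) encodes the obligate partner of the network. Its promoter rank was 97.1 and 77.0 in *GFI1-36S*, 94.5 and 92.6 in *-36N*, and 97.6 and 92.3 in *-KD* mice, with vehicle and curcumin. The fold enrichment was 37.1 and 17.3, 31.6 and 35.0, and 42.8 and 33.0 in the same order. *GFI1-36S* curcumin was the lowest library, and the other 5 lay within 92.3 to 97.6. The *GFI1-36S* intervals did not overlap, as was the case for 13.6% of genes in this direction. The main peak spanned 2945 bp with vehicle and 1251 bp with curcumin in that pair.

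*Mnt* (chr11:74830920-74845725, plus strand), the most widely expressed of the MAX-binding repressors, ranked 89.6 and 93.6 in *GFI1-36S*, 97.9 and 89.1 in *-36N*, and 92.7 and 98.3 in *-KD* mice. All 6 values lay near the top and the 2 intervals of each pair overlapped. A second domain was present about 7 kb into the gene in each library, with summits 7130 to 7267 bp from the TSS and fold enrichments of 12.1 to 32.3. *Mnt* was thus covered over 4298 bp in *GFI1-36S* curcumin and over 6749 to 8611 bp in the other libraries.

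*Mxd1* (chr6:86647042-86669161, minus strand) encodes a MAX partner that is switched on when myeloid cells mature. Its rank was 85.0 and 47.7 in *GFI1-36S*, 69.6 and 79.5 in *-36N*, and 87.7 and 74.3 in *-KD* mice. In *GFI1-36S* mice the intervals did not overlap, and 5.68% of genes had a change below the −37.4 points of *Mxd1*. The width of the strongest peak was 3835 and 680 bp in *GFI1-36S*, 3758 and 1781 bp in *-36N*, and 5376 and 1626 bp in *-KD* mice, with vehicle and curcumin. By the labels, the peak was therefore shorter with curcumin in each of the 3 pairs, also in *GFI1-36N* mice, where its fold enrichment went from 22.0 to 29.2. With the *GFI1-36S* treatments exchanged, as in the names of those lists, the *GFI1-36S* pair would go the other way. The difference in width lay on the gene side. There the far end of the peak was 3677 to 5278 bp into the gene with vehicle and 692 to 1709 bp with curcumin. A separate peak more than 1 kb from any *Mxd1* TSS was not counted. Whether the domain was split or shorter was therefore not tested, and the widths are those of the strongest peak alone. The median width of the strongest promoter peak over all genes was 1784 and 1059 bp, 1715 and 1760 bp, and 1945 and 1534 bp in the same order. Promoters of neutrophils, cells that express *Mxd1*, had a peak at 16 and 1 of 18 in *GFI1-36S*, 15 and 15 in *-36N*, and 17 and 10 in *-KD* mice, and their part in the *Mxd1* values was not tested.

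*Mxi1* (chr19:53310518-53375810, plus strand), another MXD-type repressor, is transcribed from 2 promoter regions, and both carried peaks in each library. Its rank was 41.1 and 59.1 in *GFI1-36S*, 70.8 and 46.3 in *-36N*, and 56.7 and 35.9 in *-KD* mice. With vehicle, the difference of 29.7 points between *GFI1-36N* and *-36S* was beyond the intervals, as for 5.95% of genes in this direction. No gene of the network was lower beyond them, against 3.17%. These values depended on how peaks were assigned, since the summit of the strongest peak lay 1187 to 3128 bp from the most 5′ TSS in the 6 libraries. When the summit had to lie within 1 kb of a TSS, the vehicle difference became −8.67. The change with curcumin went from −24.5 to 22.9 points in *GFI1-36N* mice and from −20.8 to 12.5 points in *-KD* mice. No direction is therefore given for *Mxi1*.

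*Mga* (chr2:119897228-119969581, plus strand) had a single promoter peak in each library. It ranked 38.0 and 20.0 in *GFI1-36S*, 33.0 and 31.4 in *-36N*, and 45.8 and 37.1 in *-KD* mice, with overlapping intervals within each pair. Its width was 1133 bp in *GFI1-36S* curcumin and 2046 to 2320 bp in the other libraries.

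*Myb* (chr10:21124935-21160984, minus strand) had a broad promoter peak in every library. The strongest peak spanned 5818 and 3912 bp in *GFI1-36S*, 5213 and 6597 bp in *-36N*, and 4866 and 4878 bp in *-KD* mice, with a width rank of 95.8 to 99.4 among promoter peaks. Its fold enrichment was 25.5 and 21.3 in *GFI1-36S*, 16.3 and 32.7 in *-36N*, and 20.5 and 18.3 in *-KD* mice. The ranks were 71.6 and 90.5, 45.4 and 88.7, and 46.9 and 46.8. Both *GFI1-KD* libraries and *GFI1-36N* vehicle thus lay near the middle of the scale, and both the *GFI1-36N* and the *-36S* curcumin library near the top. In *GFI1-36N* mice, *Myb* was 43.3 points higher with curcumin, and the rank intervals of 34.0 to 59.2 and 76.5 to 95.9 did not overlap. This held for 4.06% of genes in this direction, for no other of the 9 genes, and 99.8% of genes had a lower change than *Myb*. In *GFI1-KD* mice the change was −0.07 points, and in *GFI1-36S* mice 18.9 points with overlapping intervals.

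The summit of the *Myb* peak lay 246 to 261 bp before the TSS in the 3 vehicle libraries and in *GFI1-KD* curcumin. It lay 269 and 325 bp after the TSS in *GFI1-36N* and *-36S* curcumin, the libraries with the highest ranks. Separate peaks 4059 to 5249 bp from the start were listed in *GFI1-36N* vehicle and in *GFI1-KD* vehicle and curcumin. Their fold enrichments were 4.17, 3.85 and 4.73. Further peaks were found deeper inside the gene, 12185 to 16582 bp from the start. They were present in 3 vehicle libraries and *GFI1-36N* curcumin, the strongest with a fold enrichment of 9.59 in *GFI1-KD* vehicle, and absent from the *GFI1-36S* and *-KD* curcumin lists. The ranks of *Trim28*, *Tmem209* and *Ssmem1* were most like those of *Myb*, with mean absolute differences of 3.58, 4.06 and 4.06 points, the last pair through a promoter peak that they share.

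Over the network as a whole, curcumin and vehicle differed little in the number of promoters with a peak. A peak in only 1 library of the pair was found for 1 of 8 genes in *GFI1-36S* (*Mycl*), 1 of 9 in *-36N* (*Mycn*) and 0 of 9 in *-KD* mice, against 18.5%, 7.77% and 8.04% of all genes. Both were listed with vehicle alone. Between vehicle libraries the count was 1 (*Mycn*) for *GFI1-36N* and for *-KD* against *-36S*, and 0 for *-KD* against *-36N* mice, beside 6.58%, 7.52% and 8.53% of all genes. The median change in rank of the genes was −1.66 for the *GFI1-36S* pair, −1.92 for *-36N* and −0.49 for *-KD*, beside medians over all genes of −6.73, 1.98 and −2.37. The sign of the first and the last median of the network turned with the choice of peaks, so that no direction is given for them. Genes that ranked at least 10 points higher numbered 3, 2 and 0 in the 3 pairs, against 14.7%, 19.5% and 9.38% of all genes, and 3, 1 and 2 ranked as much lower, against 41.6%, 11.0% and 20.7%. Rank intervals that did not overlap were found for *Max* and *Mxd1*, both lower, in *GFI1-36S*, for *Myb* alone in *-36N* and for no gene in *-KD* mice. Among all genes, the intervals were higher in 5.27%, 4.06% and 2.23% and lower in 13.6%, 2.19% and 6.82% of those with a peak in both libraries.

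**Figure D3:**
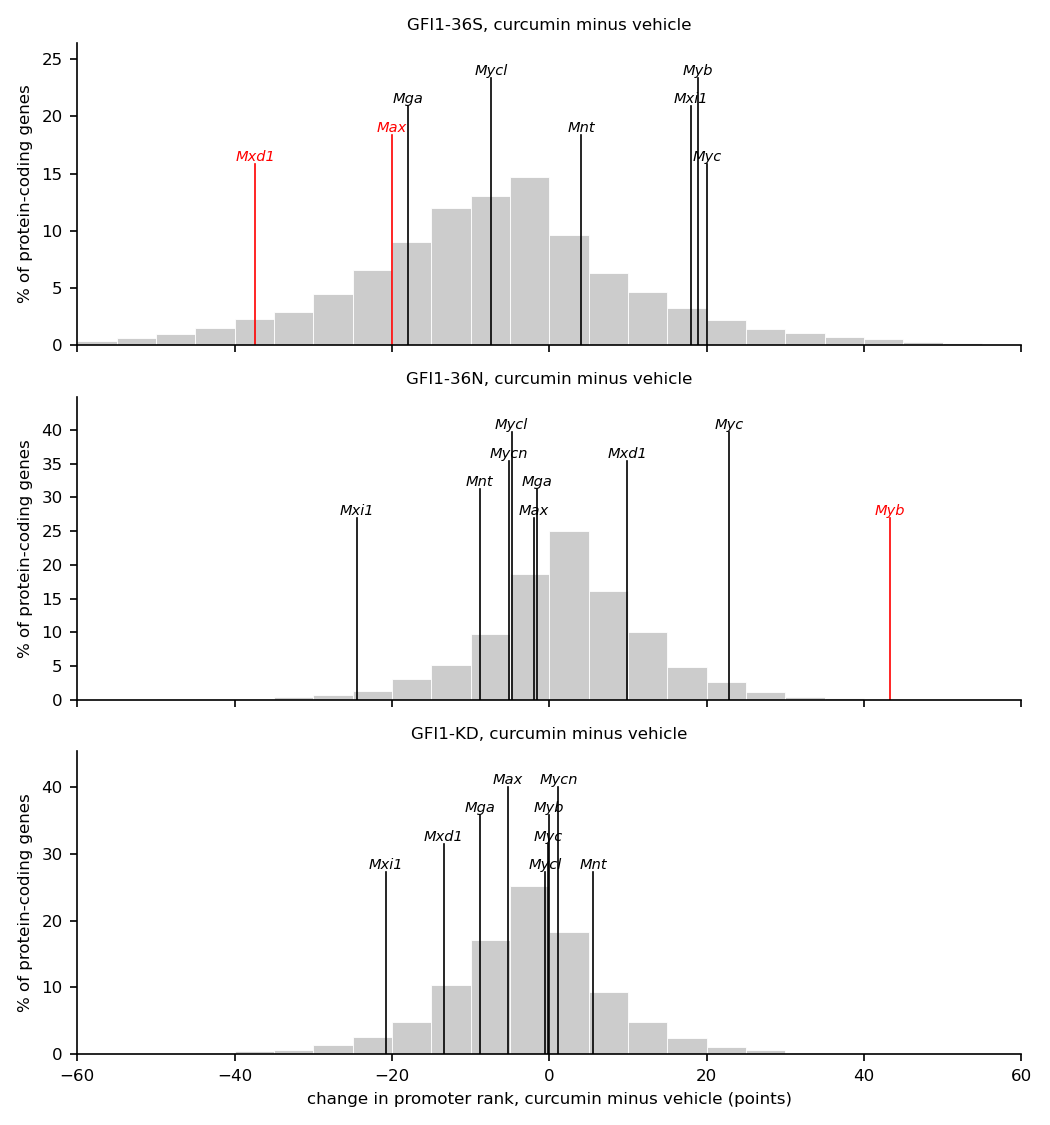
Change in promoter rank between curcumin and vehicle (x axis, points) for all protein-coding genes (grey bars, percentage of genes in bins of 5 points) and for the network genes (lines), in red where the intervals of the 2 libraries did not overlap. *Myb* lies at the far right of the *GFI1-36N* distribution, at 43.3 points, and near 0 in *GFI1-KD* mice.

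Downstream of *Myc*, sites were unevenly spread among the groups. A peak was called distal when it lay more than 1 kb from any annotated TSS, and 5 and 4 such peaks were found in *GFI1-36S*, 15 and 26 in *-36N*, and 4 and 2 in *-KD* mice, vehicle first. Both *GFI1-36N* libraries therefore held more than the other 4. As shares of all distal peaks of the library, these were 0.0208% and 0.0587% in *GFI1-36S*, 0.0651% and 0.0849% in *-36N*, and 0.0173% and 0.0128% in *-KD* mice. The excess rested on weak peaks: with each list held to its 20354 top peaks, 3 and 4 peaks remained in *GFI1-36N*, 3 and 4 in *-36S*, and 1 and 0 in *-KD* mice. With a −log10 q of at least 5, the *GFI1-36N* libraries had 7 and 13. The fewest fragments under a listed peak were 30 and 25 in *GFI1-36S*, 18 and 15 in *-36N*, and 28 and 32 in *-KD* mice. For the distal peaks upstream of *Myb*, they were 17 to 23 in all libraries. Peaks downstream of *Myc* were thus listed on fewer fragments in *GFI1-36N* mice, and the part of the local background in the counts was not tested. The *Myc* distal peaks merged into 37 sites, of which 29 were found in 1 library. Of all 49276 distal sites, 51.3% were found in exactly 1 library.

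No *Myc* distal site had a peak in all 6 libraries, as 3.56% of all distal sites did, and 2 had one in each library except *GFI1-36S* curcumin. The first of these (chr15:63703760-63704877), in an intron of the long non-coding RNA gene *Gm41335*, lay 1719 kb from the TSS. Its fold enrichment was 4.58 in *GFI1-36S* vehicle, 7.62 and 6.92 in *-36N*, and 4.55 and 3.52 in *-KD* mice, vehicle first. The second (chr15:63984696-63987056), in an intron of *Fam49b*, had 4.05, 5.06, 7.27, 3.52 and 3.48 in the same order. At both, the *GFI1-36N* fold enrichments were the highest. The summits at the first rested on 45, 52, 39, 53 and 33 fragments in the same order, with the most in *GFI1-KD* vehicle. Those at the second rested on 37, 36, 41, 40 and 32. Fold enrichments of different libraries are not on a common scale, and the part of the local background in these values was not tested. Across the genome, 11.8% of distal sites were present in exactly 5 libraries.

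The sites lay close together between 1618 and 1751 kb, a stretch picked out after the sites were seen, which held 18 of the 37. The peaks there numbered 4 and 0 in *GFI1-36S*, 9 and 12 in *-36N*, and 2 and 1 in *-KD* mice. Of the 18 sites, 14 were found in *GFI1-36N* libraries alone. *GFI1-36S* curcumin, the library with T-cell promoters, had no peak in the stretch and its 4 distal peaks elsewhere, 750 to 1285 kb from *Myc*, with fold enrichments of 2.58 to 4.50. Of 31 sites in *GFI1-36N* mice, 7 (22.6%) were present in both libraries, against 40.4% of distal sites in the whole genome. A further 7 (22.6%) were found with vehicle alone, against 19.5%, and 17 (54.8%) with curcumin alone, against 40.0%. Of 4 sites in *GFI1-KD* mice, 2 were shared, against 36.6%, 2 were found with vehicle alone, against 47.2%, and 0 with curcumin alone, against 16.2%. In *GFI1-36S* mice no site was shared, 5 were found with vehicle and 4 with curcumin alone, against 11.0%, 74.6% and 14.4% of distal sites in the whole genome. The promoter of *Pvt1*, the long non-coding RNA gene that starts 52.6 kb downstream of *Myc*, had a peak in all 6 libraries, with fold enrichments of 12.6 and 11.3 in *GFI1-36S*, 13.4 and 13.2 in *-36N*, and 10.7 and 8.10 in *-KD* mice.

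**Figure D4:**
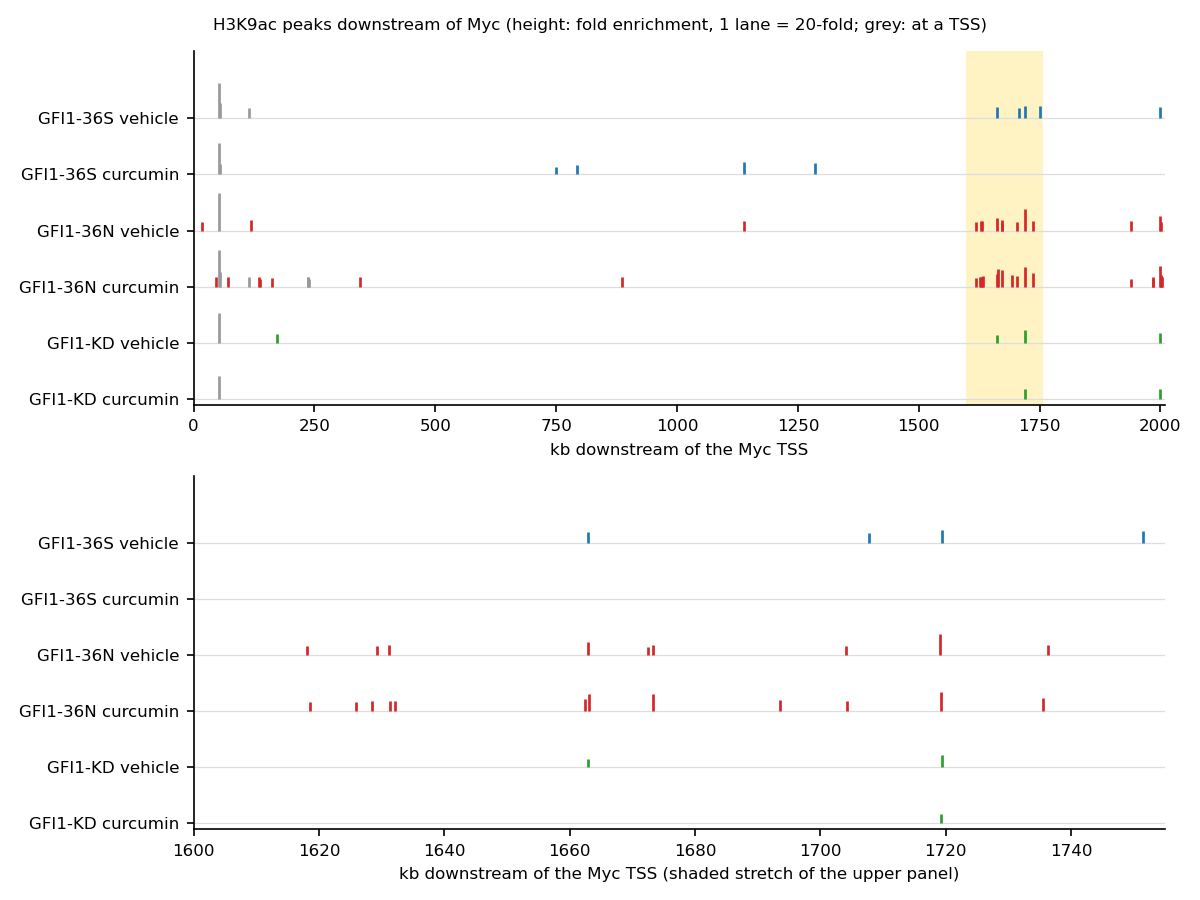
H3K9ac peaks downstream of *Myc* (x axis, kb from the TSS) in the 6 libraries, with line height showing fold enrichment and grey lines marking peaks at a TSS. The lower panel enlarges the stretch with 18 sites, where *GFI1-36N* vehicle and curcumin have 9 and 12 peaks and *GFI1-36S* curcumin has none.

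Upstream of *Myb*, 12 and 6 distal peaks were found in *GFI1-36S*, 3 and 10 in *-36N*, and 9 and 2 in *-KD* mice, vehicle first. With curcumin the listed number was thus higher in *GFI1-36N* mice and lower in both other genotypes. The lists as a whole were also longer in *GFI1-36N* and shorter in the other curcumin libraries. The share of all distal peaks of the library went from 0.050025% with vehicle to 0.08804% with curcumin for *GFI1-36S*. It went from 0.01301% to 0.03264% for *-36N* and from 0.03898% to 0.01279% for *-KD*. With the 20354 top peaks of each list, 2 and 6, 1 and 1, and 2 and 1 peaks remained. The direction for *GFI1-36S* thus turned with the measure, and none is given. The higher number for *GFI1-36N* curcumin was not kept with these equal lists. In *GFI1-36N* mice, 2 sites were shared by the libraries, none was specific to vehicle and 7 were specific to curcumin, beside 40.4%, 19.5% and 40.0% of all distal sites. In *GFI1-KD* mice, 2 were in both, 7 with vehicle alone and 0 with curcumin alone, beside 36.6%, 47.2% and 16.2%. The 19 merged sites lay 24.7 to 109.5 kb from the TSS.

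Again no site was present in all 6 libraries, and 2 were present in the 5 other than *GFI1-36S* curcumin. At 31.4 kb, the first (chr10:21191916-21193004) had fold enrichments of 5.23 in *GFI1-36S* vehicle, 5.18 and 6.75 in *-36N*, and 3.71 and 3.99 in *-KD* mice. At 39.8 kb, the second (chr10:21200696-21201135), in an intron of *Gm33728*, had 4.05, 3.88, 3.81, 4.10 and 4.48, values that were close to each other and rested on 21 to 33 fragments. *GFI1-36S* curcumin had 6 distal peaks, and 4 of them, 63.4, 74.9, 79.1 and 82.1 kb upstream, were found in no other library. Its strongest peak in the region lay at the TSS of *Gm33728*, 91.1 kb upstream, with a fold enrichment of 10.6. The values there were 3.14 in *GFI1-36S* vehicle, 3.74 and 5.37 in *-36N* and 3.58 in *GFI1-KD* vehicle, and no peak was listed in *GFI1-KD* curcumin. Its counting interval of 8.37 to 13.3 lay above those of the others, which ended at 7.58 or lower, although fold enrichments of different libraries are not on a common scale.

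At the TSS of *Gm40608*, 28.2 kb upstream of *Myb*, the fold enrichment was 12.3 and 5.34 in *GFI1-36S*, 9.77 and 12.8 in *-36N*, and 16.0 and 9.61 in *-KD* mice, vehicle first. *GFI1-36S* curcumin, the highest library at *Gm33728*, was the lowest here, and *GFI1-KD* vehicle was the highest. The nearby start of *Gm33619* had 10.8 in *GFI1-36S* vehicle, 3.74 in *GFI1-36S* curcumin and values between these in the other libraries. Both promoters had a peak in all 6 libraries, and both had their lowest fold enrichment in *GFI1-36S* curcumin. The *Myb* promoter had its highest rank, 90.5, in that library. Its fold enrichment there, 21.3, lay below the 25.5 of *GFI1-36S* vehicle and the 32.7 of *GFI1-36N* curcumin. Rank and fold enrichment are thus unlike measures here, and fold enrichments of different libraries are not on a common scale.

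**Figure D5:**
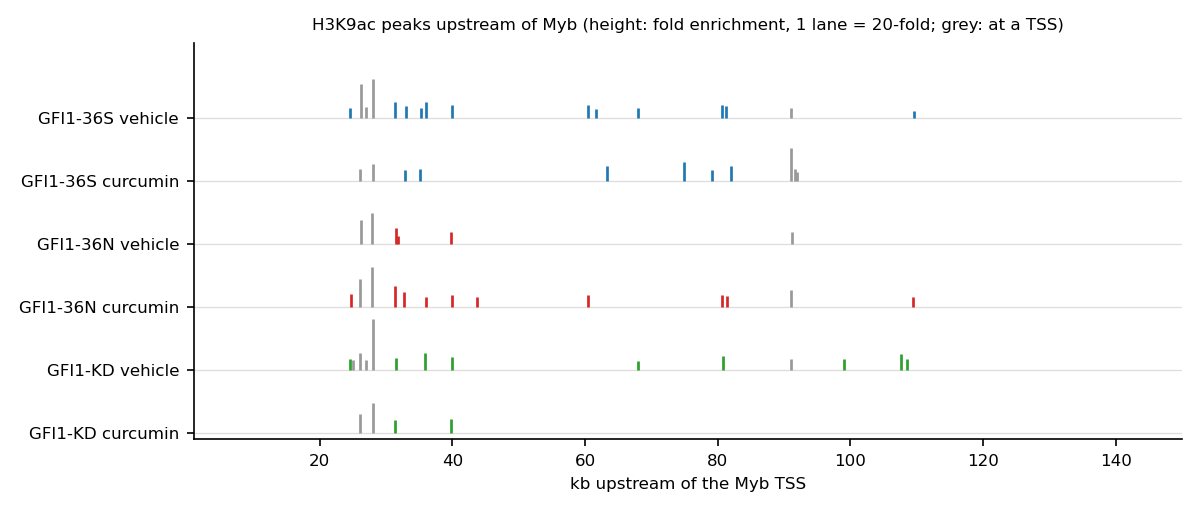
H3K9ac peaks upstream of *Myb* (x axis, kb from the TSS) in the 6 libraries, with line height showing fold enrichment and grey lines marking peaks at a TSS. *GFI1-36S* curcumin has its tallest peak at 91.1 kb, the start of *Gm33728*, and *GFI1-KD* curcumin has 2 distal peaks.

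The genes that act with the network were described by lists of names. The 20 cofactors and regulators of MYC, such as chromatin modifiers and ubiquitin ligases, had promoter peaks throughout, except *Mlxipl*, which encodes a glucose-responsive relative of the MAX partners and lacked a peak in *GFI1-36S* curcumin. The rank of *Mlxipl* elsewhere was 1.43 to 12.6. The list had median changes of −2.26, 2.92 and −0.68 in the *GFI1-36S*, *-36N* and *-KD* pairs, beside −6.73, 1.98 and −2.37 over all genes. Over all protein-coding genes, 43.4% had a peak in every library. All 18 MYC target genes, mostly of ribosome assembly, nucleotide synthesis and the cell cycle, had one there. Their median change with curcumin was 8.63 points for the *GFI1-36N* pair, where the median over all genes was 1.98. It was 6.96 beside −2.37 for the *-KD* pair, and 0.87 beside −6.73 for the *-36S* pair. The median of the targets thus lay above that of all genes in each pair. At least 10 points higher were 7 of 18 in the *GFI1-36N* pair, against 19.5% of all genes, and 2 were as much lower, against 11.0%. In the *-KD* pair 5 were higher, against 9.38%, and 3 lower, against 20.7%, and in the *-36S* pair 5 were higher, against 14.7%, and 4 lower, against 41.6%. Cell type markers also moved in the *-KD* pair. There, 7 of 17 neutrophil and 5 of 10 erythroid promoters with a peak had it with vehicle alone, with median changes of −15.1 and −19.8 points. In the *-36N* pair the medians of these lists were 5.23 and 4.08. The part of the cell types in the values of the MYC targets was not tested. Between vehicle libraries, the median difference of the targets from *GFI1-36S* was −4.90 points in *-36N* and −6.86 points in *-KD* mice, beside −0.62 and 1.10 over all genes.

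The 8 relatives and cofactors of MYB, among them *Mybl2*, *Crebbp* and *Ep300*, had a peak in every library, as did 43.4% of all protein-coding genes. Their median changes were −11.9, 2.65 and −6.68 in the 3 pairs, beside −6.73, 1.98 and −2.37 over all genes. Of 12 MYB target genes, 11 had a peak in *GFI1-36S* vehicle, 6 in *GFI1-36S* curcumin, and 10 or 11 in the other libraries. *Lmo2*, *Mpo*, *Kit* and *Cd34*, genes of progenitor and myeloid cells, had a peak in every library except *GFI1-36S* curcumin, with ranks of 98.8, 34.7, 34.2 and 18.4 in *GFI1-36S* vehicle. *Cd4*, a T-cell gene, had a peak in *GFI1-36S* curcumin, at rank 24.4, and in no other library. *Kit*, *Cd34*, *Lmo2*, *Mpo* and *Cd4* are also on the progenitor, neutrophil or T-cell lists given above. *Rag2*, a recombinase gene of lymphocytes, had a weak peak in *GFI1-36S* vehicle and both *GFI1-KD* libraries, at ranks of 1.79 to 3.43. Other MYB targets were higher in *GFI1-36S* curcumin than in vehicle. *Sox4*, which is on the progenitor list, ranked 27.3 with vehicle and 90.3 with curcumin. *Ccnb1*, a cell cycle gene, ranked 57.3 and 90.7, *Bcl2*, a survival gene, 49.0 and 62.3, and *Gata3*, a T-cell regulator, 7.59 and 78.6. These genes were named after their values were seen. In all, 5 of 12 MYB targets ranked at least 10 points higher and 6 as much lower in this pair, against 14.7% and 41.6% of all genes. No gene of the list had a peak in only 1 library of the *GFI1-36N* or *-KD* pair, against 7.77% and 8.04% of all genes.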

How the data were processed

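H3K9ac ChIP-seq was performed in BM cells of 6 groups of mice, with 1 library per group. The authors trimmed adapters (Trim Galore) and aligned the reads to mm10 (BWA-MEM). They ran MACS2 on each library separately and discarded peaks in ENCODE black list regions. Per the file columns, the deposited values are a ratio (fold enrichment of the summit), a −log10 p, a −log10 q and an integer score, none of them normalized between libraries. Read totals, the control of each list, the threshold and the handling of duplicates are not given in the sources used here. The input and IgG samples were not used here.

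Genes and TSSs came from GENCODE release M21. A promoter covered 1 kb on each side of any TSS, and overlap meant at least 1 bp. Analyses used scipy 1.17.1, pandas 2.3.3, matplotlib 3.10.9 and numpy 2.4.6 in Python 3.11.15. The fragments at the summit were whole within 0.05 for every peak, and the steps were tested on simulated data. The fragment intervals cover counting error only. PCR reads are not independent molecules. The members, the lists and the rule for named genes were chosen with earlier results of these data known. Named genes were the 9 members, genes with a TSS in a distal window, the 3 genes nearest in rank to *Myc* and *Myb*, and list genes whose peak was confined to 1 library of a pair. The alternatives changed 1 choice at a time. They were ranking by −log10 p, a window widened to 3 kb, summits required to fall inside it, lists held to their 20354 best peaks, lists held to −log10 q values from 5 upward, distal sites set by protein-coding TSSs alone, merging of peaks within 500 bp and, for *GFI1-36S*, exchanged treatments. Leaving out *GFI1-36S* curcumin, and exchanging the treatments in the comparisons between genotypes, were added after the data were seen.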

Additional observations from a re-analysis of the deposited data

Results flagged for a closer look

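The results below are those in which the curcumin and vehicle libraries of a pair differed in opposite directions between genotypes. With a single library for each genotype and treatment, the difference was not tested. The promoter rank of *Mxi1* changed by 18.0 points in *GFI1-36S* mice, by −24.5 in *-36N* and by −20.8 in *-KD* mice, and each of these signs turned under at least 1 other way of assigning peaks or treatments. Distal peaks downstream of *Myc* went from 15 (vehicle) to 26 (curcumin) for *GFI1-36N*, and from 4 to 2 for *-KD*. Distal peaks upstream of *Myb* went from 3 to 10 for *GFI1-36N*, and from 9 to 2 for *-KD*. The complete lists moved in the same directions, from 39564 to 49213 peaks in *GFI1-36N* and from 39272 to 30784 in *GFI1-KD* mice, and the part of list length in the counts was not tested beyond the equal lists described below.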

How the results depend on the processing

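No paired analysis was possible because the values come from no test and the labels give no replicate numbers. A comparison of the treatments across genotypes, with each genotype as a pair, was not run. No library could be left out of a group, since each group has 1. The median changes in rank of the 9 genes moved by less than the typical counting interval of a gene in all 33 alternatives computed, but some changed sign. The *GFI1-36S* median went from −1.66 to 0.0051 with a −log10 q of at least 5, to 2.05 with equal lists and to 1.66 with the treatments exchanged, and the *-KD* median from −0.49 to 0.45 with the −log10 q of at least 5. Between *GFI1-36N* and *-36S* vehicle it went from 5.15 to −2.56 with the summit inside the window and to −2.30 with ranks by −log10 p. Of 297 changes of single genes, 271 moved by less than their own interval. With a window of 3 kb, *Mxi1* changed by −3.89 in *GFI1-36S* mice, and with the summit inside the window by 22.9 in *-36N* and 12.5 in *-KD* mice. Between vehicle libraries it was −8.67 for *GFI1-36N* and −8.68 for *-KD* against *-36S* with the summit inside the window, and −6.01 for *-KD* with the 3 kb window. Exchanged treatments turned the *GFI1-36S* changes into −20.0 for *Myc*, 20.0 for *Max*, 37.4 for *Mxd1*, −18.0 for *Mxi1*, 17.9 for *Mga* and −18.9 for *Myb*, and the differences from *GFI1-36S* vehicle into 21.9 for *Mxd1* in *-36N* and −2.43 for *Mxi1* in *-KD* mice. The number of genes with a peak in exactly 1 library was 1 in *GFI1-KD* mice with a −log10 q of at least 5. Between vehicle libraries it was 0 for *GFI1-36N* against *-36S* with equal lists, 0 for *GFI1-KD* against *-36S* with either setting, and 1 for *GFI1-KD* against *-36N* with the −log10 q of at least 5. After the exchange it was 2 for both comparisons with *GFI1-36S*. Distal peaks downstream of *Myc* numbered 7 and 13 in *GFI1-36N* vehicle and curcumin with the −log10 q of at least 5. With equal lists they numbered 3 in *GFI1-36S* vehicle, 3 and 4 in *-36N*, and 1 and 0 in *-KD* vehicle and curcumin. Outside protein-coding TSSs alone there were 8 in *GFI1-36S* vehicle. Upstream of *Myb*, the −log10 q of at least 5 left 7 in *GFI1-36S* vehicle, 6 in *-36N* curcumin and 5 in *-KD* vehicle. Equal lists left 2 in *GFI1-36S* vehicle, 1 and 1 in *-36N*, and 2 and 1 in *-KD* mice. Outside protein-coding TSSs alone there were 11 in *GFI1-36S* curcumin, 6 in *-36N* vehicle, and 14 and 4 in *-KD* mice. After the exchange, *GFI1-36S* had 6 with vehicle and 12 with curcumin. A stricter or an equal list holds fewer peaks by construction, and the cause was not tested otherwise. Without *GFI1-36S* curcumin, the sites in at least 2 libraries numbered 7 at *Myc* and 9 at *Myb*, against 8 and 10. The distal peaks in both windows rested on 15 to 53 fragments at the summit.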
